A study of Mus musculus with 12 samples.

Results

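Caspases are proteases that take cells through apoptosis. Caspase-8 is switched on at death receptors and caspase-9 on the apoptosome, a wheel that APAF1 builds around cytochrome c, and both then set off the executioner caspases, among them caspase-6. Inhibitor of apoptosis (IAP) proteins and FLIP hold this cascade back, and SMAC, once released from mitochondria, lifts the IAP block. Neutrophils live briefly and end by apoptosis, so the balance of these factors bears on how long they circulate.

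The genes described here are Casp6, Casp8, Casp9, Apaf1, Xiap, Birc2, Cflar and Diablo, chosen by name, and all 8 are among the 11494 genes in the deposited table. RNA was measured in blood neutrophils of the series on haematopoietic loss of the Y chromosome: 6 libraries carry the genotype LOY and come from LOY bone marrow transplants (BMT), and 6 carry the genotype Control and come from Control BMT. The treatment field reads Control in both groups, and every library came from 10000 sorted cells that were Ly6G-positive, CD115-negative and RFP-positive, so both groups carry the red fluorescent reporter. The labels used here give neither mouse strain, age, the way the Y chromosome was lost nor the number of animals behind the libraries, and the spread that p-values measure here may be technical. Libraries are named by group and label number. Values are normalized reads, the deposited signal, that is, reads of a gene scaled by 1 size factor in each library.

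Facts of the libraries bear on all the values that follow. Recovered reads ranged from 17097739 to 19616066 in LOY and from 13743581 to 18459792 in control libraries, the lowest being control 2. The Y-linked RNA helicase gene Ddx3y lay between 0 and 366 normalized reads in LOY and between 650 and 1348 in control libraries, and the translation factor gene Eif2s3y between 0 and 986 in LOY and between 1478 and 3170 in control libraries. LOY 4 stood apart from its group, at 366 and 986, while the other 5 LOY libraries held at most 32.0 and 74.6; both LOY 4 values were below every control library. Genes at 0 made up 6.59% to 11.6% of the table in LOY libraries, against 20.5%, 21.7% and 17.3% in control 1, 2 and 12 and 9.33% to 11.1% in the other control libraries. All 7 neutrophil markers looked for (S100a8, S100a9, Csf3r, Cxcr2, Mmp9, Retnlg, Ly6g) were listed, with sums between 1314580 and 1961387 in LOY and between 1299389 and 2300580 in control libraries. S100a8 alone held 500885 to 805997 in LOY and 497213 to 1081102 in control libraries. Ly6g, the gene of the sort marker, held 793 to 2965 in LOY and 1387 to 4452 in control libraries. The sums were far lower for 4 monocyte genes (11595 to 16458 in LOY, 8857 to 15121 in control), 4 B cell genes (55.7 to 1229 in LOY, 0 to 972 in control) and 3 T cell genes (89.2 to 253 in LOY, 111 to 408.5 in control). They were 469 to 1123 in LOY and 532 to 1402 in control libraries for 4 platelet genes, 0 to 69.4 in LOY and 0 to 109 in control libraries for 1 NK cell gene, and 3.57 to 152 in LOY and 1.08 to 117 in control libraries for 1 eosinophil gene. The defining genes Ccr2, Cd3e, Ncr1, Klrb1c, Siglecf, Epx and Prg2 were not among the listed genes. The 5 erythroid genes summed to between 93320 and 625617 in LOY and between 72357 and 142209 in control libraries, highest in LOY 15. Among the monocyte genes Csf1r held 9734 to 15221 in LOY and 5850 to 11687 in control libraries, with 4 LOY libraries above every control library. Csf1r lay above Ly6g in every library, so the sums do not measure shares of cells. Irf8 reached 228 and F13a1 138 in LOY libraries, and both were 0 in every control library. Ly6c2 went the other way, at 1029 to 1862 in LOY and 1275 to 3952 in control libraries. The part of these other transcripts in the values below was not tested. In sorted pools, fewer cells with a transcript and less RNA per cell cannot be told apart.

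None of the 8 genes passed the test in LOY neutrophils. With limma on log2(value + 1), 0 of 8 passed an adjusted p of 0.05 over all 9742 tested genes, beside 0.0205% of all tested genes. The smallest adjusted p among the 8 was 0.826. The Y-linked Ddx3y and Eif2s3y, at −6.65 and −7.26 on the log2 scale, did not pass either (limma adjusted p = 0.189 and 0.214). A missing call, here or below, therefore does not show an unchanged level. At an unadjusted p under 0.05 there were 0 of 8 with limma, edgeR or DESeq2, where limma put 6.04%, edgeR 2.94% and DESeq2 5.55% of tested genes under that level. After adjustment the same 8 also gave 0 calls with edgeR (0% of tested genes) and with DESeq2 (0.493%). The range of the LOY libraries overlapped that of the control libraries for every one of the 8, while 0.287% of all tested genes had groups that did not overlap. Estimates lay above 0 for 5 genes and below 0 for 3, with a median of 0.59 on the log2 scale beside 0.14 over all tested genes. That median depends on the method. The largest limma estimates, of Casp6, Apaf1, Casp8 and Birc2, became 0.22, 0.52, −0.0042 and 0.046 with edgeR on recovered reads. With edgeR 4 of 8 lay above 0, and the median over all tested genes was −0.01. Without control 1, 2 and 12, 4 of 8 estimates lay above 0 and 0 of 8 passed; without LOY 4, the LOY library with the most Y-linked reads, 5 of 8 lay above 0 and 0 of 8 passed.

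**Figure D1:**
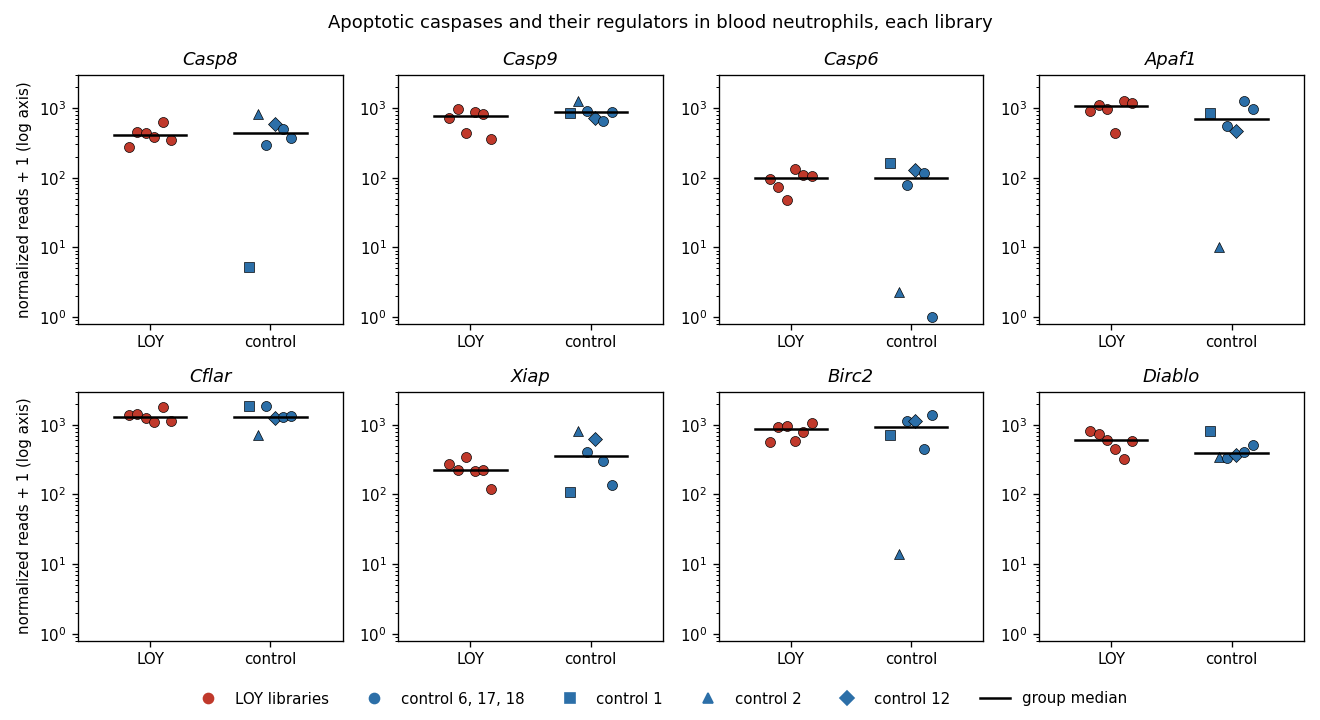
Normalized reads plus 1 on a log axis for each of the 8 genes, with LOY libraries in red, control libraries in blue and a bar at the group median. The 2 groups overlap in every panel, and the low points of Casp8 (control 1, 4.30), Apaf1 (control 2, 8.97), Birc2 (control 2, 12.8) and Casp6 (control 2, 1.28, and control 18, 0) all belong to control libraries.

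Among the initiators, Casp8 encodes the caspase that death receptors recruit (ENSMUSG00000026029, chr1:58795374-58847503, plus strand, GRCm38). It lay between 273 and 633 normalized reads in LOY libraries (median 415) and between 4.30 and 815 in control libraries (median 433). Control 1 and control 2 were the lowest and the highest of all 12 libraries, so the whole LOY range sat inside the control range. The means were 424 ± 123 in LOY and 428 ± 276 in control libraries (SD, n = 6 each). The log2 fold change was 0.85 ± 1.02 (SE, limma), although the ratio of the means was 0.989 and control 1 held 4 reads. Without control 1 the estimate was −0.23 ± 0.30, with a 95% interval from 0.538-fold to 1.34-fold.

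Cflar lies just upstream of Casp8 on the same strand, with 36489 bases between the gene models, and encodes FLIP, a relative of caspase-8 without its protease activity that competes with it at death receptors (ENSMUSG00000026031, chr1:58711508-58758884). On the log2 scale its LOY libraries spread the least of the 8 (SD 0.27). Values ran from 1086 to 1796 normalized reads in LOY libraries (median 1306) and from 717 to 1892 in control libraries (median 1313), lowest in control 2. The log2 fold change was 0.00 ± 0.23 (SE, limma adjusted p = 0.999), and its 95% interval ran from 0.710-fold to 1.40-fold, the narrowest of the 8.

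The RefSeq promoter windows of these neighbours are shown because neither holds the GC box found for the other 6 genes. RefSeq promoter windows on GRCm38.p6 were found for all 8 genes (11 windows, some genes having several starts), and the 250 bases before each start were searched on both strands for the GC box, GGGCGG or its complement CCGCCC, overlaps counted. It was found in 7 of 11 windows, against 32.7% of all 32851 promoter windows of that length. Taking a gene with any such window it was found in 6 of 8 genes, a count that the share of windows does not match. For Birc2 only the window of a start 258 bases inside the gene model held boxes (2), and that of its outer start held 0. The windows of Casp8 and Cflar held none and were 39.6% and 42.8% G or C, beside a median of 52.4% over all windows, while that of Casp9, shown for contrast, held 4 and was 66.0% G or C. Capitals mark the GC boxes. The windows are chr1:58802252-58802501 for Casp8, chr1:58711241-58711490 for Cflar and chr4:141793362-141793611 for Casp9, each on the plus strand. The RefSeq start of Casp8 lies 7128 bases inside the gene model given above, so its window is not the one before the outermost annotated start, and the 3 starts of Xiap also lie inside its model. The windows of Cflar and Casp9 end outside theirs.
Casp8: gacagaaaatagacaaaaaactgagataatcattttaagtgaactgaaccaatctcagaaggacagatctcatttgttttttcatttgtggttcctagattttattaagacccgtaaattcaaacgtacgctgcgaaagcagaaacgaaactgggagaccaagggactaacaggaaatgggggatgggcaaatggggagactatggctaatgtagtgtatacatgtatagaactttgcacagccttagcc
Cflar: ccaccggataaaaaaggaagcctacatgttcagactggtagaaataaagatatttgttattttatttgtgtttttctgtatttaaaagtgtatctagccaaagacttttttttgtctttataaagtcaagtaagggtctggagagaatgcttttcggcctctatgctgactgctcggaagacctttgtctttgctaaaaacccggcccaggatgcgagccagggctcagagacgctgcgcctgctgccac
Casp9: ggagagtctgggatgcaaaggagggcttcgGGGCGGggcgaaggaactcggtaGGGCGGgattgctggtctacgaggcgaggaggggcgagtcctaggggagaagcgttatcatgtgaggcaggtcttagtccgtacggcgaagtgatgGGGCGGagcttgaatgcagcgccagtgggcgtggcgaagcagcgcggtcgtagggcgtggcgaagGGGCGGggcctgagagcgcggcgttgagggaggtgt

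Casp9, the initiator that the apoptosome activates (ENSMUSG00000028914, chr4:141793612-141815976, plus strand), had values from 358 to 979 normalized reads in LOY libraries (median 767) and from 661 to 1278 in control libraries (median 870). LOY 9 and LOY 19, at 432 and 358, were below every control library, and the other 4 LOY libraries lay inside the control range. The means were 697 ± 249 in LOY and 885 ± 215 in control libraries. The estimate on the log2 scale was −0.40 ± 0.27 (SE, limma adjusted p = 0.826), with an interval from 0.503-fold to 1.14-fold, and −0.23 ± 0.24 without LOY 19. With all 12 libraries it was the only one of the 8 whose LOY libraries spread more on the log2 scale (SD 0.59) than its control libraries (SD 0.33).

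Apaf1, the scaffold of the apoptosome (ENSMUSG00000019979, chr10:90989311-91082770, minus strand), lay between 436 and 1274 normalized reads in LOY libraries (median 1052) and between 8.97 and 1281 in control libraries (median 702). The control minimum is control 2, where 7 reads were recovered, and the other 5 control libraries held 465 or more. Its log2 fold change was 1.31 ± 0.99 (SE, limma). Without control 2 it was 0.26 ± 0.33, with an interval from 0.730-fold to 1.97-fold, so 1 library set most of the estimate.

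The executioner gene Casp6, whose product cuts nuclear lamins (ENSMUSG00000027997, chr3:129901425-129914103, plus strand), was the lowest of the 8 per kb of exon. It ranged from 46.4 to 130.5 normalized reads in LOY libraries (median 99.6) and from 0 to 163 in control libraries (median 96.8). Control 18 held 0 reads, which allows a true level of at most 3 reads, or 2.63 normalized reads, by counting error alone, and control 2 held 1 read. The remaining 4 control libraries lay between 76.5 and 163, above or within the LOY range. The log2 fold change of 1.70 ± 1.29 (SE, limma) had the widest interval of the 8, from 0.466-fold to 22.6-fold, while the ratio of the means was 1.15. It was 0.74 ± 1.04 without control 18, 0.98 ± 1.20 without control 2 and 2.21 ± 1.31 without control 1. On recovered reads edgeR gave 0.22 and DESeq2 0.20, so the size of the estimate turned on those libraries and on the method.

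Of the inhibitors, Xiap encodes the IAP that binds and blocks caspases directly, caspase-9 among them (ENSMUSG00000025860, chrX:42059679-42109656, plus strand). Values were 120 to 346 normalized reads in LOY libraries (median 225) and 109 to 803 in control libraries (median 354). Control 2 and control 12, at 803 and 615, were the highest of all 12 libraries, and control 1 was the lowest. The means were 234 ± 73.9 in LOY and 395 ± 273 in control libraries, and the estimate on the log2 scale was −0.47 ± 0.50 (SE, limma adjusted p = 0.870). Without control 2 it was −0.20 ± 0.47, without control 12 −0.28 ± 0.52, without LOY 19 −0.30 ± 0.52 and without control 1 −0.78 ± 0.45. On recovered reads edgeR gave −0.74 and DESeq2 −0.75, the value that the authors' deposited table gives as well.

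Birc2 encodes cIAP1, a ubiquitin ligase at the tumour necrosis factor receptor complex (ENSMUSG00000057367, chr9:7818227-7837064, minus strand). It stood between 562 and 1067 normalized reads in LOY libraries (median 867) and between 12.8 and 1378 in control libraries (median 916). Control 2 held 10 reads of it, and 3 control libraries were above every LOY library. The log2 fold change was 0.84 ± 0.94 (SE, limma) with all libraries and turned to −0.16 ± 0.30 without control 2, with an interval from 0.566-fold to 1.41-fold.

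Diablo encodes SMAC, the mitochondrial protein that displaces caspases from IAPs (ENSMUSG00000029433, chr5:123509765-123524176, minus strand). It lay between 324 and 812 normalized reads in LOY libraries (median 595) and between 335 and 828 in control libraries (median 387). LOY 4, 5, 9 and 19 lay at 594.7 or more, as did control 1 among the control libraries, and LOY 15 was the lowest of all 12. The means were 586 ± 180 in LOY and 467 ± 190 in control libraries, and the estimate on the log2 scale was 0.35 ± 0.29 (SE, limma adjusted p = 0.854), with an interval from 0.820-fold to 1.97-fold, and 0.53 ± 0.26 without control 1. Annotated exons of B3gnt4 on the other strand and of Gm49027 on the same strand overlap those of Diablo over 1326 and 1193 bases. AC157931.1 on the other strand overlaps them over 122 bases and is the only one of these that the deposited table lists. The library kit does not mark strand, so its count is uncertain. Casp9 shares 94 exonic bases with each of Cela2a and Ctrc on the other strand, and the other 6 genes share none.

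**Figure D2:**
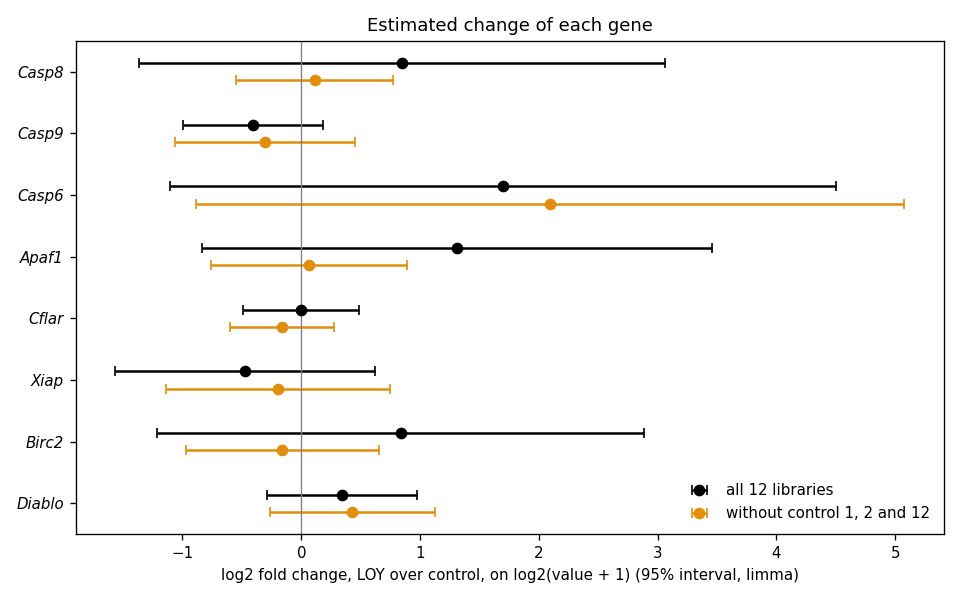
Log2 fold change of LOY over control on log2(value + 1) with its 95% interval (limma) for each gene, with all 12 libraries in black and without control 1, 2 and 12 in orange. All intervals cross 0 in both fits; the Apaf1 estimate is 1.31 in the first and 0.06 in the second.

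The genes did not vary in the same way across libraries. Control libraries held the highest of the 12 values for 8 of the 8 genes and the lowest for 6, LOY 15 the lowest of Diablo and LOY 19 that of Casp9. The same shares over all tested genes were not computed, so these counts are not a trait of the 8. Control 2 alone was highest for 3 genes (Casp8, Casp9, Xiap) and lowest for 3 (Apaf1, Birc2, Cflar). On the log2 scale the SD was smaller among LOY than among control libraries for 7 of 8 genes, with a median SD of 0.49 in LOY and 1.84 in control libraries. Over all tested genes these medians were 0.58 and 1.00, and the control SD was the larger in 77.5% of them. Without control 1, 2 and 12 the median control SD of the 8 was 0.49, the LOY median, and the control SD was the larger for 5 of 8. Casp8 and Diablo then joined Casp9 in spreading more among LOY libraries.

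The widest intervals belonged to genes with near-absent values in single libraries. Of the 6 genes with a median of 300 or more over the 12 libraries, 3 had a library under 5% of that median: Apaf1 and Birc2 in control 2 (0.960% and 1.48% of their medians) and Casp8 in control 1 (1.04%). Among all 4497 genes at that level 9.34% had such a library, a limit chosen after the values were seen and given without a test. By library the share was 5.58% in control 2, 4.11% in control 1 and 0.623% in control 12, between 0% and 0.178% in the LOY libraries and between 0.0222% and 0.200% in the other control libraries. Of the 19 other pathway genes at that level, 1 had such a library (5.26%). It was Casp2, described below, with 1 read in control 2. Whether these transcripts were missing from the cells or lost from the libraries was not tested.

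**Figure D3:**
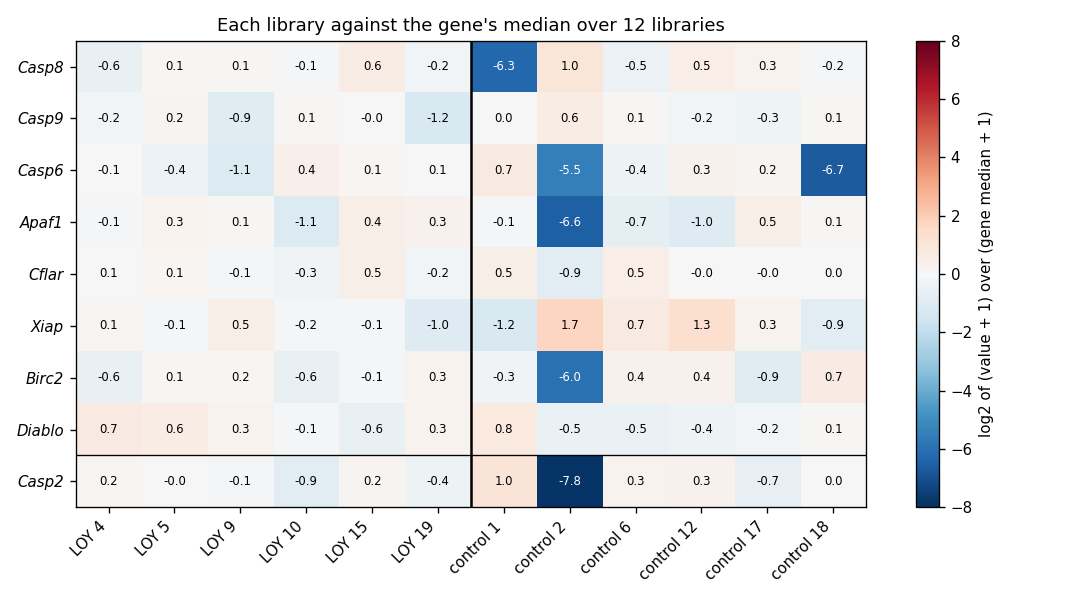
Log2 of value plus 1 over the gene's median plus 1 for the 8 genes and Casp2, another caspase gene (rows) in each library (columns, LOY left of the line). The dark blue cells are Casp8 in control 1, Casp6, Apaf1, Birc2 and Casp2 in control 2, and Casp6 in control 18, while no LOY library has one.

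Levels between genes were compared per kb of annotated exon, over the union of all annotated transcripts, which lowers the value of genes with long rare exons such as Cflar. In LOY libraries the order of mean normalized reads per kb was Birc2 (178 ± 45.9, SD), Casp8 (146 ± 42.3), Casp9 (134 ± 48.0), Apaf1 (108 ± 33.0), Cflar (106 ± 20.5), Diablo (95.1 ± 29.2), Xiap (24.8 ± 7.81) and Casp6 (16.7 ± 5.28). Neighbours in this order overlapped across libraries except Diablo and Xiap, whose LOY ranges were 52.6 to 132 and 12.7 to 36.5. In control libraries the means were 174 ± 111 for Birc2, 148 ± 95.4 for Casp8, 170 ± 41.3 for Casp9, 76.3 ± 49.2 for Apaf1, 110 ± 34.1 for Cflar, 75.7 ± 30.8 for Diablo, 41.7 ± 28.8 for Xiap and 14.5 ± 12.2 for Casp6. Xiap and Casp6 were thus the lowest of the 8 per kb in both groups.

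Ratios within a library set a gene against its partner, per kb and as descriptions. Cflar over Casp8 ran from 0.642 to 1.14 in LOY libraries (median 0.687) and from 0.201 to 97.7 in control libraries (median 0.709). In 5 LOY libraries it lay between 0.642 and 0.739, and the 97.7 belongs to control 1, where Casp8 was near-absent. Apaf1 over Casp9 ran from 0.285 to 1.87 in LOY libraries (median 0.808) and from 0.00404 to 1.12 in control libraries (median 0.469), lowest in control 2. Diablo over Xiap ran from 2.22 to 7.60 in LOY libraries (median 3.87) and from 0.652 to 11.7 in control libraries (median 1.68). Diablo lay above Xiap per kb in 6 of 6 LOY and 4 of 6 control libraries, and the groups overlapped.

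**Figure D4:**
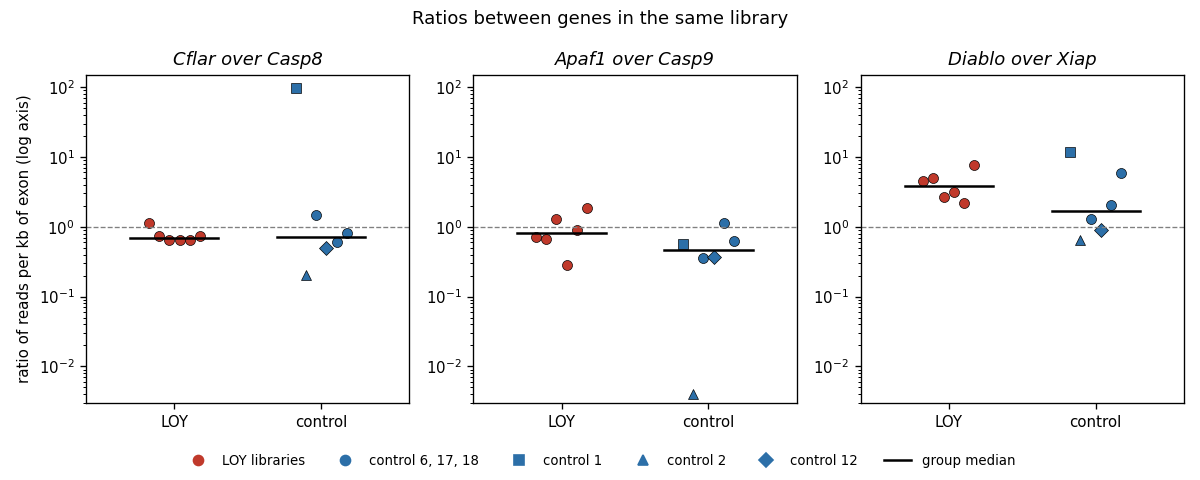
Ratio of reads per kb of exon between genes of the same library on a log axis, with LOY libraries in red, control libraries in blue and a bar at the group median; the dashed line marks equal levels. For Cflar over Casp8 the LOY libraries other than LOY 4 (1.14) lie between 0.642 and 0.739, and control 1 (97.7) and control 2 (0.201) are the outermost control points.

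The remaining genes of the pathway gave no call either. Of 50 genes in 6 lists, 37 were in the table, 33 were tested and 0 rose or fell (limma). At an unadjusted p under 0.05 there were 5 of 33, beside 6.04% of all tested genes. The count was 5 of 37 with DESeq2 (5.55% of all tested genes), 2 of 33 with edgeR (2.94%) and 0 of 33 with limma without control 1, 2 and 12 (5.07%). The median log2 fold change of the 33 was 0.14, beside 0.14 over all tested genes. Casp2, which encodes another initiator-like caspase, lay between 284 and 595 normalized reads in LOY libraries (median 492) and between 1.28 and 1067 in control libraries (median 577), with the highest and the lowest value in control 1 and control 2. The means were 472 ± 118 in LOY and 532.5 ± 355 in control libraries. Its log2 fold change was 0.96 ± 1.24 (SE, limma adjusted p = 0.884), and −0.38 ± 0.30 without control 2.

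Among 4 tested IAP family genes 0 passed. Birc3, which encodes cIAP2, had the highest mean of the list (reads, not per length), at 2608 ± 499 normalized reads in LOY and 3650 ± 1353 in control libraries (estimate −0.44 ± 0.21 on the log2 scale, limma adjusted p = 0.810). Birc6, the gene of a giant IAP that is also a ubiquitin-conjugating enzyme, stood at 479 ± 247 in LOY and 204 ± 238 in control libraries (1.98 ± 0.78, adjusted p = 0.794), and at 0.47 ± 0.59 without control 1, 2 and 12. Naip2, of a family of near-identical copies whose reads the counting may have split, was at 1042 ± 165 in LOY and 1186 ± 359 in control libraries. Of 4 tested genes for mitochondrial factors and IAP antagonists 0 passed. Cycs, which encodes cytochrome c, stood at 219 ± 54.3 in LOY and 186 ± 84.1 in control libraries (0.43 ± 0.49), Htra2, an IAP-binding protease gene, at 509 ± 144 in LOY and 511 ± 185 in control libraries, and Xaf1, an XIAP antagonist gene, at 201 ± 54.1 in LOY and 166 ± 139 in control libraries (2.14 ± 1.45). Without control 2 the estimates of Cycs and Xaf1 were 0.01 and 1.28, and that of Xaf1 was 1.04 without control 1.

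Of 10 tested death receptor genes 0 passed, with 4 estimates above 0 and 6 below. The tumour necrosis factor receptor gene Tnfrsf1a had the highest mean of that list in reads, at 14035 ± 1193 normalized reads in LOY and 15780.2 ± 1134 in control libraries (estimate −0.17 ± 0.07, SE, on the log2 scale, limma adjusted p = 0.810). Traf3, an adaptor that works with cIAP1, was at 410 ± 151 in LOY and 645 ± 218 in control libraries (−0.68 ± 0.31), and the death receptor gene Fas at 3131 ± 512 in LOY and 2699 ± 609 in control libraries. The adaptor gene Fadd, which links receptors to caspase-8, was not among the listed genes. Of 3 tested genes listed with the initiator platforms, not all of them parts of a platform, 0 passed. The adaptor gene Cradd was at 141 ± 71.7 in LOY and 137 ± 91.0 in control libraries. Apip, whose product binds APAF1, was at 96.8 ± 27.6 in LOY and 85.5 ± 79.9 in control libraries (1.79 ± 1.30). The mitochondrial chaperonin gene Hspd1 was at 249 ± 111 in LOY and 206.5 ± 185 in control libraries (1.52 ± 1.23). The estimate of Apip was 0.84 without control 18, 1.05 without control 1 and 0.19 with edgeR, and that of Hspd1 was 0.52 without control 2. Of 11 tested executioner substrates 0 passed. The smallest adjusted p of the 33 genes was that of Lmna, the lamin A gene, at 394 ± 245 in LOY and 101 ± 140 in control libraries (2.76 ± 0.98, limma adjusted p = 0.762), and Lmnb1, a lamin B gene, was at 3692 ± 451 in LOY and 4664 ± 1030 in control libraries (−0.32 ± 0.14). Without control 1, 2 and 12 the estimates were 1.89 ± 0.91 for Lmna, −0.09 ± 0.13 for Lmnb1, −0.26 ± 0.34 for Traf3, −0.09 for Tnfrsf1a and −0.19 for Birc3. Gsn, which encodes the actin-severing protein gelsolin, had the highest mean of the substrates in reads, at 23172 ± 3294 in LOY and 23442 ± 4424 in control libraries.

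**Figure D5:**
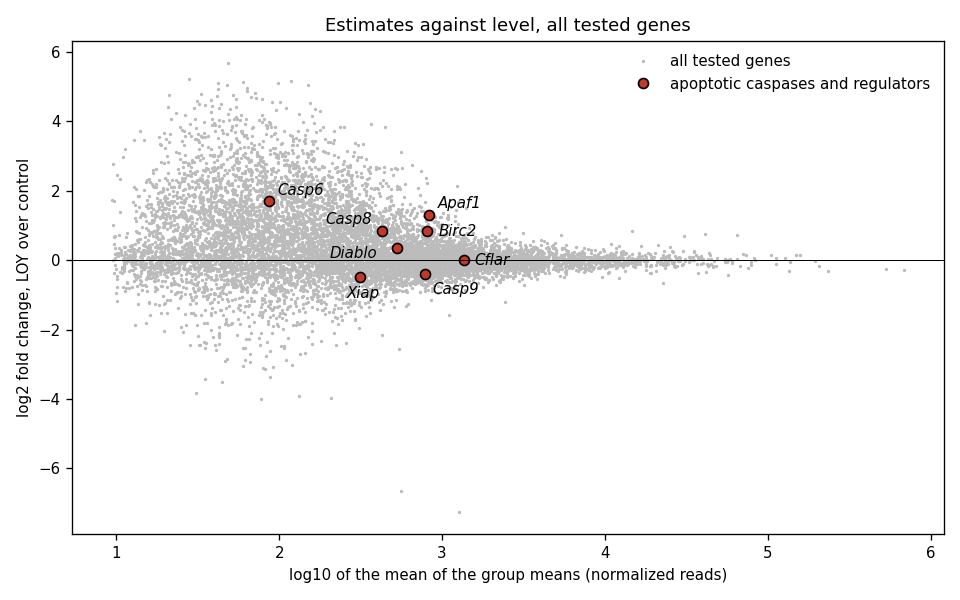
Log2 fold change of LOY over control (limma, log2(value + 1)) against log10 of the mean of the group means in normalized reads for all 9742 tested genes (grey), with the 8 genes in red. The 8 run from −0.47 (Xiap) to 1.70 (Casp6), and their rank among genes of like level was not computed.

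For each of the 8, the gene with the most similar profile over the 12 libraries was sought among tested genes with a mean of 500 or more, by Pearson r of log2(value + 1). The libraries share their depth and their near-absent genes, so these values are descriptions. Casp8 was most like the purinergic receptor gene P2ry13 (r = 0.99, Spearman rho = 0.93, and r = 0.79 over the 9 libraries without control 1, 2 and 12), which was at 596 normalized reads in control 1 and between 4057 and 6276 elsewhere. Birc2 was most like Idua (r = 0.99, rho = 0.94, and 0.94 over the 9), which was at 3.84 in control 2. Apaf1 was most like Pqbp1 (r = 0.99, rho = 0.83, and 0.79 over the 9), at 7.69 in control 2. Casp9 was most like Grina (r = 0.95, rho = 0.89, and 0.96 over the 9), a pair without any near-absent library. The closest profiles were Csnk1e for Casp6 (r = 0.90, rho = 0.31, and r = 0.88 over the 9) and Slc44a1 for Xiap (r = 0.89, rho = 0.86, and 0.83 over the 9). They were Sla for Cflar (r = 0.85, rho = 0.71, and 0.60 over the 9) and Sppl2a for Diablo (r = 0.84, rho = 0.82, and 0.86 over the 9).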

How the data were processed

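RNA was measured in 12 libraries of sorted mouse blood neutrophils, 6 LOY and 6 control, made with SMART-Seq v4 and Nextera XT per the labels' protocols. Tools named in the submitters' processing notes are STAR 2.5.2b, featureCounts, Subread 1.5.2, Trimmomatic 0.36 and bcl2fastq 2.17, with the builds GRCm38 and mm10. In 1 table the authors deposited a normalized signal for every gene in each library, beside log2 fold changes and p-values of their own comparison, per the file headers. The tool behind it is not stated in the sources used here. Within 0.02 reads, 100% of values above 0 in each library were whole multiples of 1 step, so read counts were recovered from the deposited signal. Genes with a mean under 8.63 are not listed. The 16 names that a spreadsheet had turned to dates were restored by identifier. GENCODE vM21 (GRCm38) held 11475 of the identifiers and gave coordinates and exonic lengths.

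The limma test (version 3.58.1, R 4.3.3, trended and robust) ran on log2(value + 1) for genes that reached 10 in 6 or more libraries, with Benjamini-Hochberg adjustment over all of them. The added 1 shrinks ratios between low values, but a single value near 0 weighs heavily on this scale. Estimates can thus be larger than on recovered reads, as for Casp6 (1.70 with limma, 0.22 with edgeR). Alternatives were DESeq2 1.42.0 and edgeR's quasi-likelihood test (4.0.16) on recovered reads, other normalizations, filters, pseudocounts, sample weights, a covariate and left-out libraries. The scripts were tested on simulated counts, which did not model near-absent genes of single libraries such as control 1 and 2. That test therefore does not bear on the estimates those libraries moved. The genes, lists and alternatives were chosen with earlier results of these data known. Pathway genes are named by the smallest p and the highest mean, 2 of each per list. Some genes of the pathway are not reported here. Intervals and floors for single counts cover counting error only.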

Additional observations from a re-analysis of the deposited data

Results flagged for a closer look

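The per-kb ratio of Cflar over Casp8 stood apart in 1 library of each group, by the gap to the nearest other library of its group over the group's range. LOY 4 was at 1.14, against 0.739 for the next LOY library and 0.642 for the lowest (gap 0.805 of the range, limit 0.625 for 6 libraries). Control 1 was at 97.7, against 1.46 for the next control library and 0.201 for the lowest (gap 0.987 of the range). In all, 22 groups of values were examined this way, 2 stood apart, and chance gives about 1 in 20.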

How the results depend on the processing

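Under every alternative run, 0 of the 8 genes and 0 of the other pathway genes were called, with limma, edgeR or DESeq2. The number of called genes over the whole table was 2. It was 0 with edgeR, 54 with DESeq2, 0 with quantile normalization, 0 with a mean of 50 or more, 0 with each library's share of genes at 0 in the model, 1 with sample quality weights, 0 without control 1, 2 and 12, and between 0 and 17 with 1 library left out. The median log2 fold change over all tested genes was 0.14, against 0.000623 with quantile normalization and −0.01 with edgeR, so estimates of the 8 are read beside that shift. The signs of Casp6, Casp9, Xiap and Diablo held under all 23 alternatives, while their size moved: Casp6 ranged from 0.20 (DESeq2) to 2.21, Casp9 from −0.52 to −0.23, Xiap from −0.78 to −0.20 and Diablo from 0.24 to 0.53. With 1 library left out, Casp8 ranged from −0.23 to 1.22, Birc2 from −0.16 to 1.16, Casp2 from −0.38 to 1.40 and Cflar from −0.18 to 0.10. Casp8 also turned to −0.0042 with edgeR and −0.016 with DESeq2, Casp2 to −0.15 with edgeR and −0.17 with DESeq2, Cflar to 0.057 with quantile normalization and 0.014 with TMM scaling, and Cycs to −0.0090 with sample quality weights. With that share in the model, Apaf1 was at −0.36, Birc2 at −0.65, Hspd1 at −0.89, Xaf1 at −0.86, Cycs at −0.14 and Casp2 at −0.73. Without control 1, 2 and 12, Birc2 was at −0.16, Hspd1 at −0.18, Xaf1 at −0.15, Cycs at −0.057 and Casp2 at −0.056. The cause was not tested. No paired analysis was possible because the groups share no replicate number. Counting error matters most for Casp6, the lowest of the 8.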
